A study of Mus musculus with 8 samples.

Results

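Integrin chains, laminin chains and 6 other genes of the basement membrane, the matrix and its receptors were taken by gene symbol. The rule took every Itga and Itgb gene with a number or the letter v in its symbol. It also took every Lama, Lamb and Lamc gene, and Nid1, Nid2, Hspg2, Agrn, Dag1 and Fn1. The rule found 38 members among the 36047 genes of the Ensembl 96 mouse annotation, with 21 integrin chains, 11 laminin chains and 6 others. Integrin alpha chains named by another letter, such as Itgal and Itgam of leukocytes, lie outside the rule.

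Muscle stem cells (MuSCs) lie between the muscle fiber and its basement membrane. Laminins, which are trimers of an alpha, a beta and a gamma chain, form a sheet there that nidogens and perlecan tie to collagen IV, and cells hold on to it through integrins, which are pairs of an alpha and a beta chain, and through dystroglycan. In muscle the main laminin carries the alpha2 chain, and its main receptors are integrin alpha7 beta1 and dystroglycan.

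RNA was sequenced from sorted MuSCs of 3 male mice on a VA-free diet and 2 male mice on control chow for 8 weeks. VA-free mice ate a custom feed without vitamin A, whereas controls stayed on normal chow. All 5 mice were 5 to 6 months old and carried the Pax7-nTnG reporter, in which tamoxifen, given to both groups in the final week, makes Cre under Pax7 switch nuclei to GFP. GFP+ cells of gastrocnemius and quadriceps were sorted per mouse, and the RNA of a mouse was split into technical replicates A and B, of which 8 libraries were sequenced. For VA-free mice these were 1B, 2A, 3A and 3B, for CTRL mice 1A, 1B, 2A and 2B, and library values stand in this order below. Libraries of a mouse share an animal, so tests used 5 mice.

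The libraries held between 44831232 and 88650428 estimated counts. Levels within a gene are given as CPM, the counts scaled to a fixed library total, after TMM normalization, and levels between genes as TPM, which also take account of transcript length. All 14 MuSC markers, Pax7 among them, had counts in all 8 libraries, but so had most markers of other cells. The MuSC list summed to between 8417 and 9496 CPM in VA-free libraries and to between 3196 and 5678 CPM in CTRL libraries, and 13 of its 14 genes were higher on the VA-free diet. In CTRL 1A and CTRL 1B the sum of the endothelial markers (4209 and 4500 CPM) was close to that of the MuSC markers (4278 and 4600 CPM). CTRL 2A stood apart from CTRL 2B of the same mouse. It was the lowest of the 4 CTRL libraries for 32 of 38 members, compared with 36.1% of all genes tested, and for 15 of the 16 members that were higher on the VA-free diet.

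All 38 members passed the expression filter, and 24 differed between the diets at an adjusted p under 0.05, against 41.4% of the 17997 genes tested. There were 16 members higher on the VA-free diet (18.9% of all genes) and 8 lower (22.5% of all genes). The median log2 fold change, VA-free over control, was 0.58 for the members and 0.00296 for all genes. In 28 members no VA-free mouse lay within the range of the control mice or the reverse, as in 63.3% of all genes, and in 22 members the same held for libraries, as in 41.3% of all genes. Laminin chains, nidogens, perlecan, agrin and dystroglycan made up 12 of the 16 higher members. Among the 11 laminin chains 7 were higher and 1 was lower. Among the 21 integrin chains 4 were higher and 6 lower, which is near the shares over all genes.

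Without CTRL 2A, 27 members passed (39.6% of all genes), 16 higher (18%) and 11 lower (21.6%). Without CTRL 2B, which leaves CTRL 2A alone for that mouse, 15 passed (25.2% of all genes), 10 higher (9.08%) and 5 lower (16.1%). The members are long transcripts, with 19 of 38 in the longest of 10 equal length classes of all genes. In that class the median log2 fold change of all genes was 0.62, with 41.2% higher and 8.67% lower, compared with 10 higher and 5 lower among the 19 members. After the trend of each mouse with transcript length was removed, 20 members passed (35% of all genes), 12 of them higher (21.1% of all genes) and 8 lower (13.9% of all genes), and the median log2 fold change was 0.28 for members and 0.18 for all genes. With the length trend removed and CTRL 2A left out together, 23 passed (35.9% of all genes), 11 higher (23.3%) and 12 lower (12.7%).

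**Figure D1:**
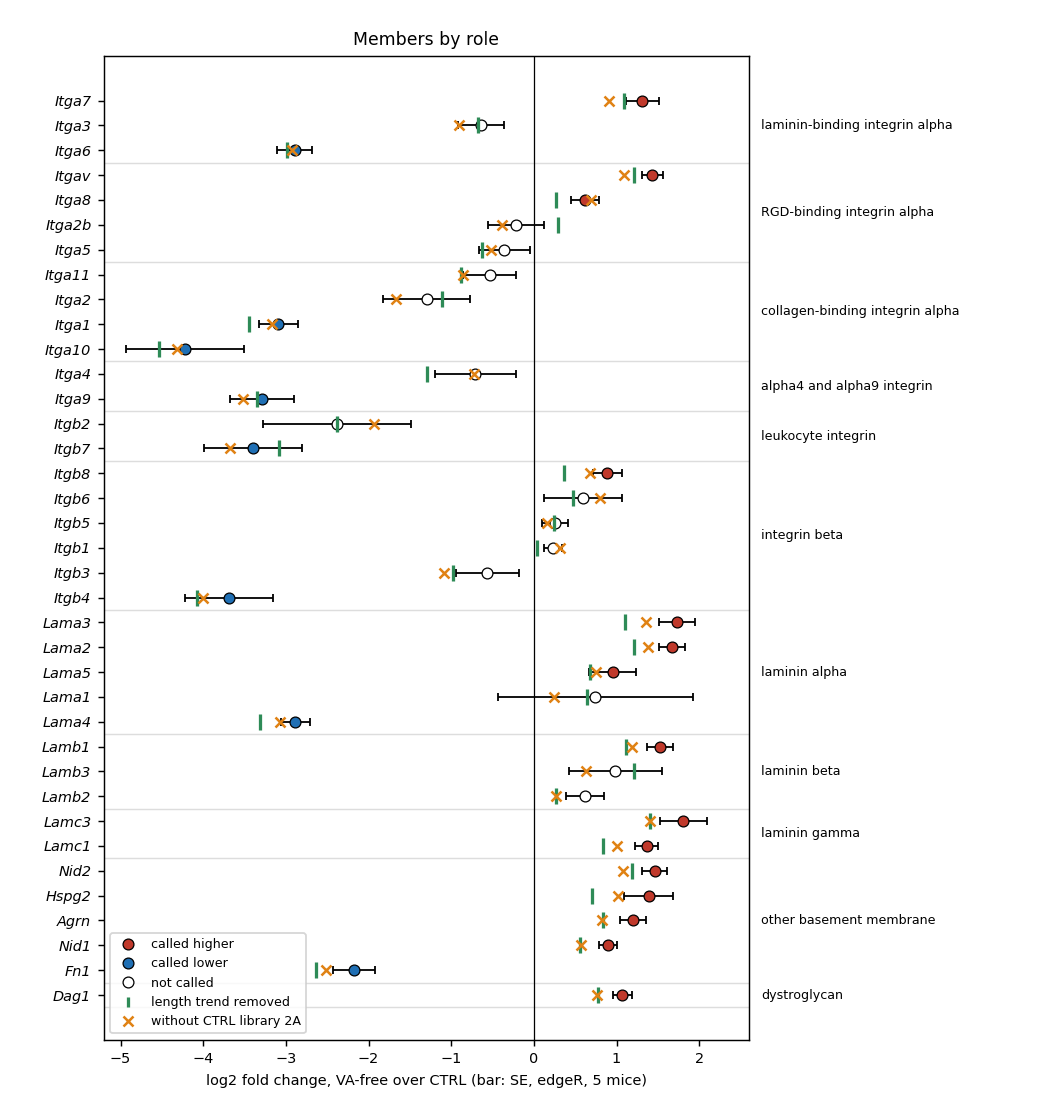
Log2 fold change of 37 members, VA-free over control, with the standard error from edgeR over 5 mice (circles and bars), the same with the length trend removed (green ticks) and without CTRL library 2A (orange crosses). Red circles mark 15 members called higher, blue circles the 8 called lower and open circles the 14 that were not called, and Lamc1 and Lamc3 lie above 0 while the collagen-binding integrin chains all lie below it.

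**Figure D2:**
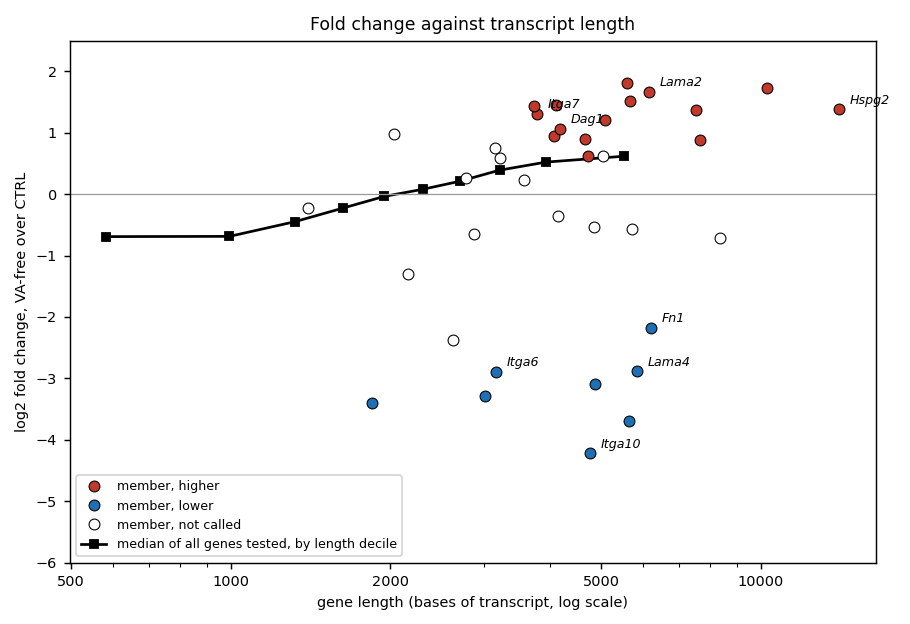
Log2 fold change of 37 members against transcript length on a log axis, with the median of all genes tested in 10 length classes (black squares). The black line rises from -0.69 in the shortest class to 0.62 in the longest, most red points lie above it, and the blue points lie far below it at lengths where the line is above 0, apart from Itgb7 at 1849 bases.

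The start regions of 4 members are shown because Lama2, Dag1 and Itgav were higher and Itga1 was lower under all 26 alternative settings, and because vitamin A acts through retinoic acid receptors, which bind DNA at repeats of the letters AGGTCA. Each is the 250 bases upstream of the RefSeq start in GRCm38.p6, read on the gene's strand, and overlaps no annotated exon. They lie at chr10:27616943-27617192 (minus strand) for Lama2, chr9:108263959-108264208 (minus strand) for Dag1, chr2:83724147-83724396 (plus strand) for Itgav and chr13:115101965-115102214 (minus strand) for Itga1. The Lama2 window lies inside the annotated span of the gene, which ends at 27619758. Its RefSeq start is 99 bases from the 5′ end of Lama2-201. Capitals mark CCAAT, the GC box letters GGGCGG and the E box letters CAGCTG, which myogenic factors can bind, on either strand.
Lama2: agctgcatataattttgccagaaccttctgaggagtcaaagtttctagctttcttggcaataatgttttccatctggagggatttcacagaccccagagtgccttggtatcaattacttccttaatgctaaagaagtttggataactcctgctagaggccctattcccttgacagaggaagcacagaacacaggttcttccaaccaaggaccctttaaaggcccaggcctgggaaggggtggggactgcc
Dag1: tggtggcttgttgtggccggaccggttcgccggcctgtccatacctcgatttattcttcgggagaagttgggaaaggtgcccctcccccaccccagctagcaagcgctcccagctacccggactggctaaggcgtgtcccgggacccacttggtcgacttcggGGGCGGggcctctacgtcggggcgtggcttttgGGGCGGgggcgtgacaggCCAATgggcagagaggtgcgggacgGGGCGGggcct
Itgav: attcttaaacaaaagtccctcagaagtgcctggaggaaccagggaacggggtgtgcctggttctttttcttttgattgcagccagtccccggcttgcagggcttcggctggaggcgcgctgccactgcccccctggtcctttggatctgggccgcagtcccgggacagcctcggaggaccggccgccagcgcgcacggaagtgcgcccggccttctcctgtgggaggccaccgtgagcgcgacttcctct
Itga1: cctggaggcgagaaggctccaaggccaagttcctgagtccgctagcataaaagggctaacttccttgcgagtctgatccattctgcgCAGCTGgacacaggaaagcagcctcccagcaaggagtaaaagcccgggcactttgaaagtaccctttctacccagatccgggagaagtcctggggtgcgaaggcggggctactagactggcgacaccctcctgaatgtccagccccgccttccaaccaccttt

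Dag1 held 3 GGGCGG and 1 CCAAT, Itga1 held 1 CAGCTG, and Lama2 and Itgav held none of these or of the other motifs searched, the receptor letters AGGTCA and the TATA box letters TATAAA. The 5 motifs were chosen after values had been seen, do not overlap in these windows and were searched on both strands. A window within 100 bases of the 5′ end of the gene's most abundant coding transcript was found for 22 members, 9 higher, 3 lower and 10 not called. None of the 22 held AGGTCA, compared with 14% of all 32851 RefSeq windows, and none held TATAAA, compared with 12.4%. GGGCGG was in 11 of 22 (32.7% of all windows), of which 6 were higher and none lower, and CAGCTG was in 4 of 22 (13% of all windows). CCAAT was in 3 of 22, Dag1, Lamb1 and Nid1, compared with 33.8% of all windows. The median share of G and C letters was 64.4% in windows of higher members and 56% in those of lower ones, against 52.4% over all windows. Some of the 22 windows lay on annotated exons, that of Itga8 with all 250 bases and that of Itga2b with 180. These matches describe letters in a window and show no binding.

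Dystroglycan was the most abundant member. Dag1 (GRCm38, chr9:108204634-108263958) encodes a precursor that is cut into an outer part, which binds laminin through its sugars, and a part that crosses the membrane and holds dystrophin. Its level was 3717, 3840, 3796 and 4051 CPM in the VA-free libraries and 1687, 1885, 1013 and 2727 CPM in the CTRL libraries. All 4 VA-free libraries lay above all 4 CTRL libraries, and the VA-free libraries were close to each other while CTRL 2A and CTRL 2B of a single mouse were the lowest and the highest of their diet. Over mice this was 3877 ± 92.7 against 1848 ± 10 CPM (SD, n = 3 and n = 2), a log2 fold change of 1.07 ± 0.12 (SE; edgeR's quasi-likelihood test, adjusted p = 0.000739). By CPM it was the 10th gene of 17997 in VA-free MuSCs and the 42nd in controls. By TPM, which also takes account of transcript length, it was the 53rd and the 198th. The small SD of the control mice does not hold the gap between their libraries, and the log2 fold change was 0.76 without CTRL 2A and 1.42 without CTRL 2B.

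In TPM, which compares genes per length, Dag1 was at 1694 ± 15.3 in VA-free and 617 ± 25.4 in control mice. Itgb1 followed at 474 ± 5.14 and 292 ± 18.2, and Itga7 at 394 ± 50.5 and 118 ± 17.7. Next in VA-free mice stood Lamc1 at 258 ± 30.1, Lamb2 at 197 ± 9.49, Lama2 at 165 ± 25.5 and Nid1 at 129 ± 7.83, so that the most abundant chain of each laminin class ranked below the receptors. In control mice Lamb2 was at 94.2 ± 30.2, Lamc1 at 75.9 ± 11.4, Itgb5 at 72.9 ± 14.3, Nid1 at 52.1 ± 5.86 and Lama2 at 50.3 ± 5.21. Lamb2, Lamc1 and Itgb5 lay within the spread between mice of one another, as did Nid1 and Lama2.

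Among laminin alpha chains, 3 of 5 were higher and 1 was lower. Lama2 (chr10:26980036-27619758), whose loss causes a congenital muscular dystrophy, was at 645, 576, 534 and 492 CPM in VA-free libraries and at 161, 160, 126 and 282 CPM in CTRL libraries. The diets did not overlap, with a log2 fold change of 1.67 ± 0.16 (adjusted p = 0.000494), or 3.18-fold higher. Lama4 (chr10:38965515-39110188), the alpha chain of a laminin of blood vessel walls, went the other way, at 8.74, 8.90, 7.44 and 9.62 CPM against 65.0, 86.1, 37.3 and 71.0 CPM. Its log2 fold change was -2.88 ± 0.18 (adjusted p = 0.000226), and its lowest CTRL library was above its highest VA-free library. Lama3, a chain of the laminin of skin and other epithelia, was at 57.9, 57.9, 45.2 and 31.0 CPM against 17.6, 13.1, 6.28 and 24.4 CPM, without overlap (log2 fold change 1.73 ± 0.22, adjusted p = 0.00117). Lama5, found in many adult basement membranes, was at 61.4, 37.0, 53.0 and 41.3 CPM against 17.4, 45.5, 12.6 and 26.5 CPM, and CTRL 1B overlapped the VA-free libraries. Its call (log2 fold change 0.95 ± 0.29, adjusted p = 0.0345) was lost with the length trend removed (0.68, adjusted p = 0.0819), and its sign turned to -0.16 with average transcript length as an offset. Lama1, an embryonic chain, had at most 28 counts in a library.

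Of the beta chains, Lamb1 (chr12:31265234-31329644) was at 220, 187, 250 and 254 CPM in VA-free libraries and at 62.6, 89.6, 37.0 and 118 CPM in CTRL libraries, 2.87-fold higher with no overlap (log2 fold change 1.52 ± 0.16, adjusted p = 0.000603). Retinoic acid is known to raise Lamb1 in embryonal carcinoma cells. Lamb2, the beta chain of laminins at the neuromuscular junction, was at 475, 554, 520 and 604 CPM against 368, 499, 60.7 and 450 CPM. CTRL 2A alone was far below the rest, and Lamb2 was not called (log2 fold change 0.62 ± 0.23, adjusted p = 0.0729), with 0.26 without CTRL 2A. Lamb3 stayed below 1 CPM in every library.

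Among the gamma chains, Lamc1 and Lamc3 were higher. Lamc1 (chr1:153218922-153332786), the gamma chain of most laminins, was at 1148, 967, 1107 and 999 CPM in VA-free libraries and at 344, 415, 208 and 674 CPM in CTRL libraries, 2.58-fold higher (log2 fold change 1.37 ± 0.14, adjusted p = 0.000589). Lamc3 was at 18.2, 27.8, 13.3 and 16.8 CPM against 3.37, 9.27, 1.52 and 9.26 CPM (log2 fold change 1.81 ± 0.29, adjusted p = 0.00292). Neither gene's libraries overlapped between the diets, but without CTRL 2B the adjusted p of Lamc3 was 0.0512.

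**Figure D3:**
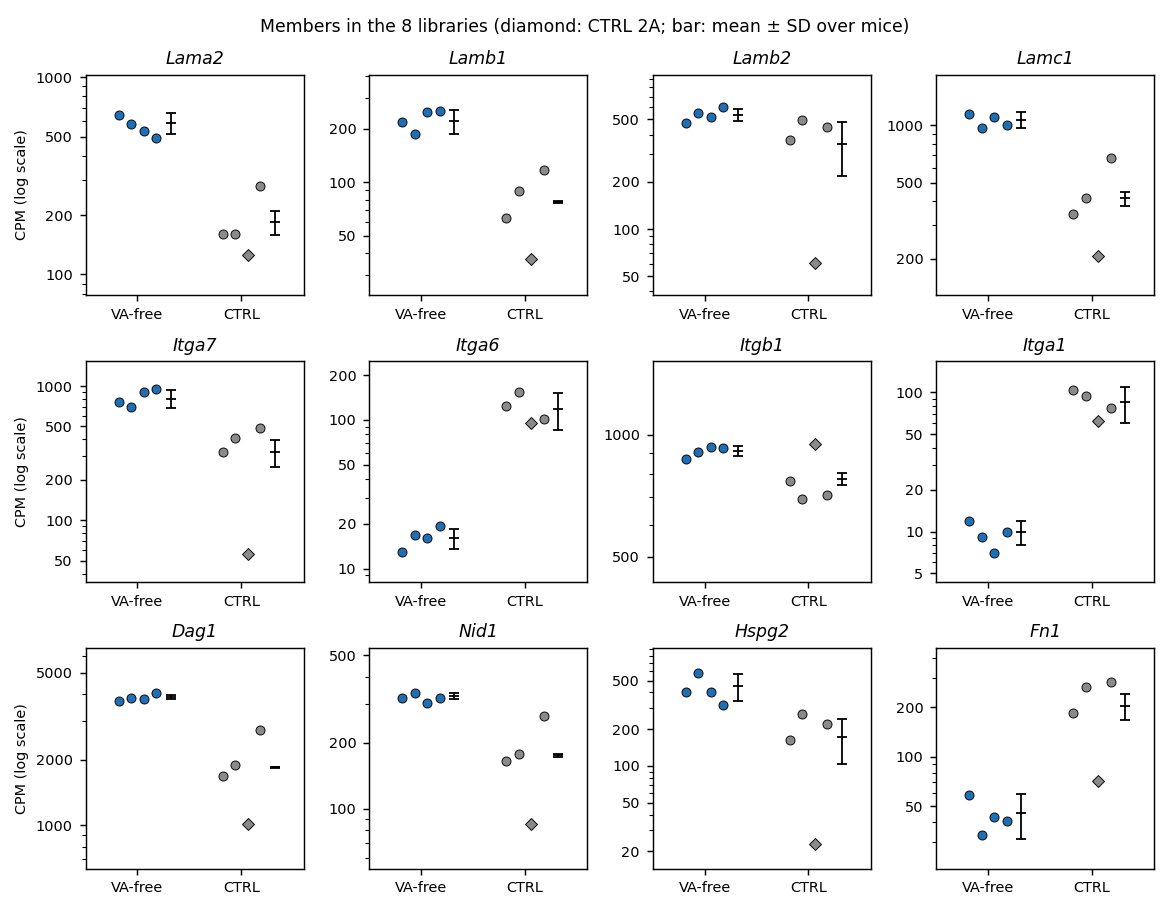
CPM of 12 members in the 8 libraries on log axes, with the mean and SD over mice beside the points and CTRL 2A as a diamond. VA-free libraries lie above all CTRL libraries for Lama2, Lamb1, Lamc1, Itga7, Dag1, Nid1 and Hspg2 and below them for Itga6, Itga1 and Fn1, while those of Lamb2 and Itgb1 overlap with CTRL libraries.

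The chain makeup was then compared per length, within a set of chains that can take the same place in a trimer or pair. Lama2 took 84.9% ± 0.546 of the summed TPM of laminin alpha chains in VA-free mice and 61.3% ± 5.82 in control mice (SD, n = 3 and n = 2). Lama4 took 1.47% ± 0.198 and 18.4% ± 4.94. The VA-free libraries did not overlap with the CTRL libraries in either share, with Lama2 between 84.2% and 85.5% against 53.3% to 68.9%. On CPM per kilobase of the longest coding transcript the difference in Lama4 was larger, at 2.07% against 32.4%, and for Lama5 the scales differ, since it took 8.98% against 17.4% of TPM but 6% against 6.60% of CPM per kilobase. The coding Lama5-201 held 42.9% of the gene's TPM in VA-free and 19.2% in control mice, but 94.5% and 81.7% of its estimated counts. The rest lay on processed transcripts of 451 to 734 bases. Among the laminin-binding integrin alpha chains, Itga7 took 94.9% ± 0.203 in VA-free and 62.2% ± 4.99 in control mice, and Itga6 took 3.28% ± 0.247 and 33.0% ± 7.06. In CTRL 2A alone Itga6 was above Itga7, at 57.8% against 39.8%. Shares of Lamb1, Lamb2, Lamc1 and Lamc3 overlapped between libraries of the diets. An exact permutation test, two-sided, cannot give a p below 0.1 with 3 mice against 2, and it gave p = 0.1 for Lama2, Lama4, Itga7 and Itga6.

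**Figure D4:**
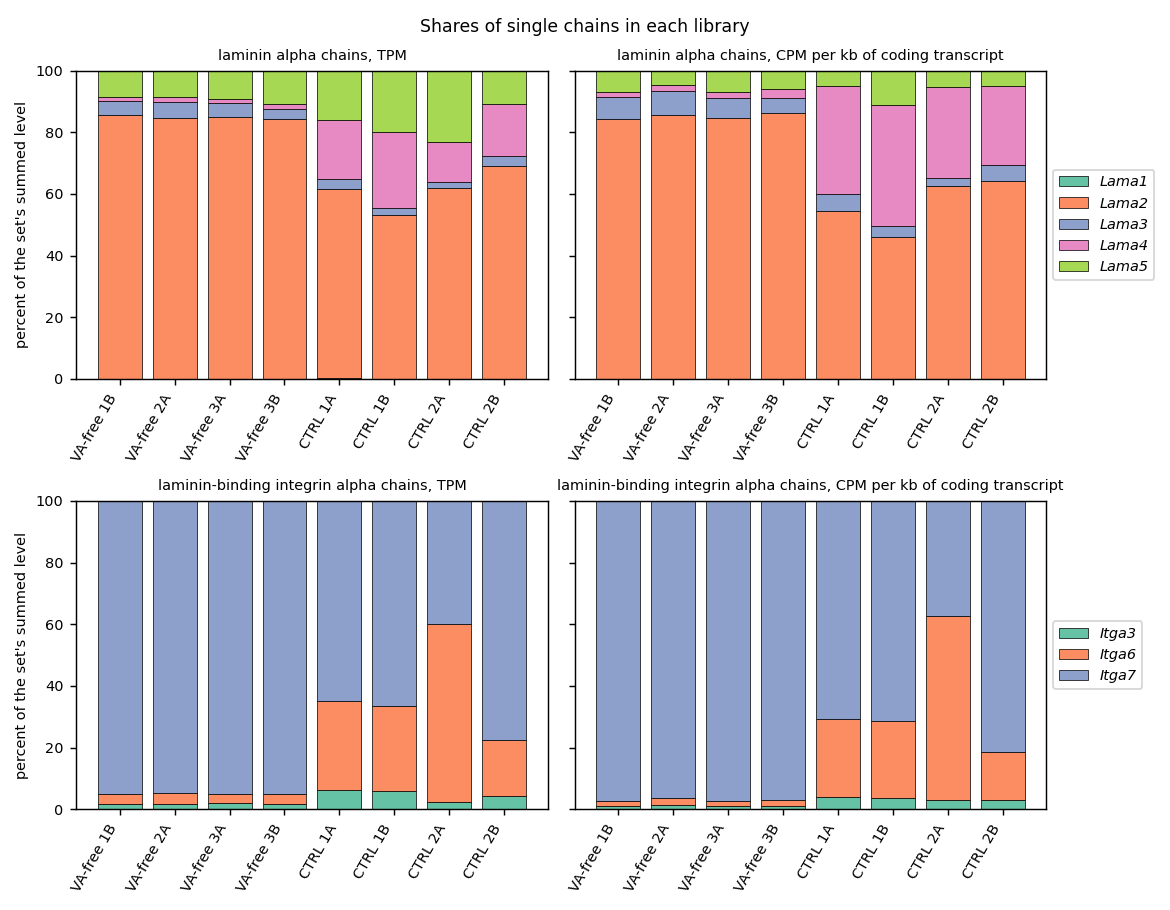
Percent of the summed level of laminin alpha chains (top) and laminin-binding integrin alpha chains (bottom) taken by each chain in the 8 libraries, by TPM (left) and by CPM per kilobase of coding transcript (right). The 4 VA-free bars are nearly alike, with Lama2 between 84.2% and 85.5% of TPM, while the CTRL bars vary and hold more Lama4 and Itga6.

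The other basement membrane and matrix members Nid1, Nid2, Hspg2 and Agrn were called higher, and Fn1 was called lower. Among the higher ones only Nid2 kept its call with the length trend removed and CTRL 2A left out together. Nid1 (log2 fold change 0.36, adjusted p = 0.0811), Agrn (0.60, adjusted p = 0.0631) and Hspg2 (0.46, adjusted p = 0.155) lost theirs. Nid1 and Nid2, the nidogens that link laminin with collagen IV, both rose. Nid1 (chr13:13437551-13512269) was at 319, 336, 302 and 319 CPM in VA-free libraries and at 165, 177, 85.4 and 263 CPM in CTRL libraries (log2 fold change 0.90 ± 0.11, adjusted p = 0.00103). Nid2 was at 125, 154, 119 and 119 CPM against 40.5, 59.1, 16.9 and 75.8 CPM (log2 fold change 1.46 ± 0.15, adjusted p = 0.000558). Both were without overlap, and the CTRL libraries of mouse 2 were the lowest and the highest of their diet in both.

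Hspg2 (chr4:137468769-137570630), which encodes the proteoglycan perlecan, was at 404, 574, 406 and 315 CPM in VA-free libraries against 164, 269, 23.1 and 222 CPM in CTRL libraries. The diets did not overlap, and CTRL 2A was several times below the other CTRL libraries. The log2 fold change was 1.39 ± 0.30 (adjusted p = 0.00978), or 1.02 without CTRL 2A (adjusted p = 0.00693), but the call was lost once the trend with length was taken out (0.71, adjusted p = 0.128) and without CTRL 2B (1.87, adjusted p = 0.178). Agrn, which encodes agrin, an organizer of acetylcholine receptors that also binds dystroglycan, was at 38, 33.9, 32.7 and 34.6 CPM against 10.3, 17.3, 7.62 and 26.4 CPM (log2 fold change 1.20 ± 0.15, adjusted p = 0.00125). Fn1 (chr1:71585520-71653200) encodes fibronectin, a matrix ligand of integrin alpha5 beta1 that MuSCs can make during regeneration. It was at 58.8, 33.2, 42.7 and 40.7 CPM in VA-free libraries and at 185, 265, 70.7 and 286 CPM in CTRL libraries, 4.52-fold lower (log2 fold change -2.17 ± 0.25, adjusted p = 0.000843). All CTRL libraries were above all VA-free ones, CTRL 2A least, and the call was lost without CTRL 2B (adjusted p = 0.0568).

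Of the laminin-binding integrin alpha chains, 1 was higher and 1 lower. Itga7 (chr10:128933818-128958282), the alpha chain of the main laminin receptor of muscle and a surface marker used to sort MuSCs, was at 765, 698, 895 and 953 CPM in VA-free libraries and at 320, 413, 55.7 and 483 CPM in CTRL libraries. Even the highest CTRL library was below the lowest VA-free library. The log2 fold change was 1.31 ± 0.20 (adjusted p = 0.00229), 0.91 without CTRL 2A (adjusted p = 0.00606) and 1.89 without CTRL 2B, where it was not called (adjusted p = 0.128). Itga6 (chr2:71745616-71858416), which pairs with Itgb1 or Itgb4, was at 13.0, 16.8, 16.0 and 19.2 CPM against 123, 155, 95.7 and 101 CPM, 7.43-fold lower (log2 fold change -2.89 ± 0.21, adjusted p = 0.00026). Here CTRL 2A lay with the other CTRL libraries. Itga3 was at 9.97, 12.4, 13.2 and 12.7 CPM against 21.8, 25.2, 5.54 and 20.5 CPM, with CTRL 2A below and the rest above the VA-free libraries (log2 fold change -0.64 ± 0.28, adjusted p = 0.107), and it passed as lower without CTRL 2A (-0.91, adjusted p = 0.00618).

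Among the alpha chains that bind RGD motifs in fibronectin and other ligands, 2 of 4 were higher. Itgav (chr2:83724397-83806916) pairs with 5 beta chains of this list, namely Itgb1, Itgb3, Itgb5, Itgb6 and Itgb8. It was at 114, 100, 91.7 and 106 CPM in VA-free libraries and at 35.4, 36.6, 20.9 and 62.1 CPM in CTRL libraries, 2.70-fold higher with no overlap (log2 fold change 1.44 ± 0.13, adjusted p = 0.000418). Itga8 was at 100, 115, 96.1 and 110 CPM against 54.9, 55.5, 96.5 and 76.3 CPM, where CTRL 2A reached the lowest VA-free library (log2 fold change 0.62 ± 0.17, adjusted p = 0.0271). Its call was lost after removal of the length trend (0.27, adjusted p = 0.31) and without CTRL 2B (0.46, adjusted p = 0.242). Itga5, the fibronectin receptor chain, was at 74.5, 90.6, 76.6 and 86.5 CPM against 137, 151, 41.6 and 90.3 CPM. The VA-free libraries fell within the wide range of the CTRL libraries, and Itga5 was not called (log2 fold change -0.36 ± 0.31, adjusted p = 0.4). Itga2b, the alpha chain of the platelet fibrinogen receptor, was between 5.51 and 6.79 CPM in VA-free and between 2.91 and 13.0 CPM in CTRL libraries (log2 fold change -0.22 ± 0.34, adjusted p = 0.65).

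The 4 collagen-binding alpha chains all had a log2 fold change below 0, and 2 were called. Itga1 (chr13:114953096-115101964), whose product binds collagen IV, was at 11.9, 9.15, 6.96 and 9.84 CPM in VA-free libraries and at 104, 93.5, 62.2 and 76.7 CPM in CTRL libraries, 8.51-fold lower (log2 fold change -3.09 ± 0.23, adjusted p = 0.000274). Itga10, known from cartilage, had between 2 and 14 counts in a VA-free library and between 45 and 230 in a CTRL library (log2 fold change -4.22 ± 0.71, adjusted p = 0.00367). Neither gene's libraries overlapped. Itga11 and Itga2 were between 3.78 and 7.29 and between 0.480 and 1.28 CPM in VA-free libraries, against 2.5 to 11.4 and 0.0208 to 3.63 CPM, and were not called (adjusted p = 0.233 and 0.0902), although both passed as lower without CTRL 2A (adjusted p = 0.0473 and 0.0194).

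Itga9, whose product binds tenascin C and VCAM-1, was at 1.18, 2.56, 2.84 and 2.15 CPM in VA-free libraries and at 21.1, 29.6, 8.05 and 22.1 CPM in CTRL libraries, 9.77-fold lower without overlap (log2 fold change -3.29 ± 0.39, adjusted p = 0.000946). The related Itga4 was between 0.463 and 2.57 CPM over VA-free and between 1.90 and 4.18 CPM over CTRL libraries and was not called (adjusted p = 0.3). Of the leukocyte chains, Itgb7 had between 3 and 21 counts in a VA-free library and between 24 and 186 in a CTRL library (log2 fold change -3.39 ± 0.59, adjusted p = 0.00421), and its call was lost without CTRL 2B (adjusted p = 0.0595). Itgb2 was below 3 CPM in VA-free libraries and between 1.22 and 19.2 CPM in CTRL libraries, where it was highest in CTRL 2A, and was not called (adjusted p = 0.0718).

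Of the 6 beta chains outside the leukocyte chains, 1 was higher and 1 lower. Itgb1 (chr8:128685654-128733200), which pairs with most alpha chains named here, was at 871, 905, 930 and 925 CPM in VA-free libraries and at 766, 693, 947 and 710 CPM in CTRL libraries. Only CTRL 2A reached the VA-free range, and the gene was not called (log2 fold change 0.23 ± 0.11, adjusted p = 0.139), although it passed without CTRL 2A (0.31, adjusted p = 0.0454). In TPM its log2 fold change was 0.70, and with the length trend removed it was 0.04. Itgb5, a partner of Itgav, was at 171, 167, 180 and 185 CPM against 158, 173, 110 and 144 CPM, overlapping (log2 fold change 0.26 ± 0.16, adjusted p = 0.237). Itgb8, which with Itgav releases latent TGF-beta, was at 14.7, 14.4, 17.6 and 15.2 CPM against 7.32, 7.30, 6.74 and 11.7 CPM, all VA-free libraries above all CTRL libraries (log2 fold change 0.89 ± 0.18, adjusted p = 0.00732), and its call was lost with the length trend removed (0.36, adjusted p = 0.19).

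Itgb4 (chr11:115974709-116008412), which pairs with Itga6 alone in hemidesmosomes and on some vessels and nerve sheaths, was at 1.41, 4.58, 3.59 and 4.51 CPM in VA-free libraries and at 44.0, 74.5, 5.72 and 47.2 CPM in CTRL libraries. CTRL 2A lay just above the VA-free libraries and far below the other CTRL libraries. The gene was 12.9-fold lower (log2 fold change -3.69 ± 0.54, adjusted p = 0.002), -4.00 without CTRL 2A and -3.30 without CTRL 2B, where it was not called (adjusted p = 0.0611). Itgb3 and Itgb6 stayed between 0.395 and 3.51 CPM over all libraries and were not called (adjusted p = 0.285 and 0.36).

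Several lower members are also made by cells other than MuSCs, so the markers of such cells are given beside them. Among all genes tested, 22.5% were called lower and 18.9% higher. All 14 endothelial markers were lower on the VA-free diet and summed to between 308 and 437 CPM in VA-free libraries and between 1746 and 4500 CPM in CTRL libraries, with Pecam1 at 38.1 ± 6.81 against 465 ± 231 CPM over mice (log2 fold change -3.61 ± 0.32, adjusted p = 0.000398). Of 12 Schwann cell markers 11 were lower, and they summed to between 69.4 and 93.1 against between 398 and 847 CPM. The same held for 8 of 9 tenocyte markers (45.8 to 76.0 against 713 to 1278 CPM), 8 of 11 markers of fibro-adipogenic progenitors (1036 to 1260 against 3057 to 3776 CPM) and 7 of 13 myofiber markers (401 to 528 against 573 to 662 CPM). Of the 12 pericyte and smooth muscle markers 7 were lower and 1, Notch3, was higher, with sums of 1768 to 2047 against 2808 to 3433 CPM. Macrophage markers, lower in 4 of 12, summed to between 28.6 and 172 against between 193 and 972 CPM and were highest in CTRL 2A. Of 9 lymphocyte, neutrophil and platelet markers tested 2 were lower, which is near the share over all genes. Nkg7 and Ncr1 had no count in any VA-free library, the only listed markers of other cells at 0 in every library of a diet. The log2 fold changes of the 8 lower members ran from -4.22 (Itga10) to -2.17 (Fn1), and the medians of the lists were -4.84 for tenocytes, -3.74 for Schwann cells, -3.55 for endothelium, -3.54 for fibro-adipogenic progenitors, -1.72 for macrophages, -1.27 for pericytes and smooth muscle, -1.27 for lymphocytes, neutrophils and platelets and -0.92 for myofibers. For the 14 MuSC markers, of which 13 were higher, the median was 1.01, and 1.18 with the length trend removed. The part of any of these cells, MuSCs included, in the members' results, higher or lower, was not tested. In bulk RNA a change in the number of cells of a type and one in RNA per cell cannot be told apart.

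**Figure D5:**
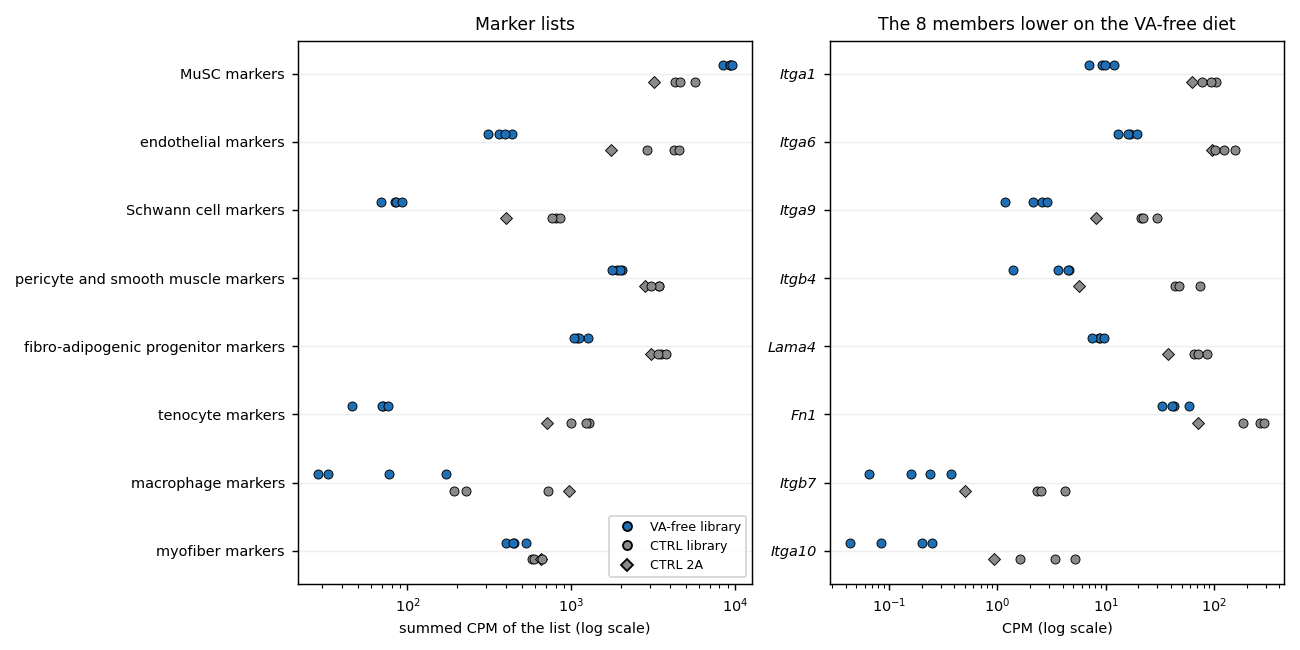
Summed CPM of 8 marker lists (left) and CPM of the 8 members called lower (right) in each library, on log axes, with VA-free libraries in blue, CTRL libraries in grey and CTRL 2A as a diamond. MuSC markers are the only list with higher sums in VA-free libraries. CTRL 2A is the CTRL library nearest to the VA-free ones for the endothelial, Schwann cell, tenocyte, fibro-adipogenic progenitor, and pericyte and smooth muscle lists. It is the lowest CTRL library for all 8 members shown.

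Genes that act with the members were read from lists written by hand, and their counts stand against 18.9% higher and 22.5% lower over all genes. Of 24 tested genes that link integrins to the cytoskeleton, 7 were higher and 7 lower, and the 3 most abundant of these were higher, namely Tln1 and Tln2, the talins that switch integrins on, and Tns2, a tensin. Tln1 was at 360 ± 3.43 against 154 ± 13.3 CPM (log2 fold change 1.23 ± 0.12, adjusted p = 0.000479). Tns2 was at 361 ± 29.8 against 125 ± 31.1 CPM (1.53 ± 0.18, adjusted p = 0.000964). Without CTRL 2B the call of Tns2 was lost (adjusted p = 0.0936). Tln2 was at 312 against 169 CPM (0.89 ± 0.15, adjusted p = 0.00408), but its log2 fold change was 0.04 in TPM and -0.35 with average transcript length as an offset, where that of Tln1 was 0.25 (adjusted p = 0.141). Of the 13 genes of the dystrophin complex around dystroglycan, 2 were higher, 1 was lower and 10 were not called. Dmd, which encodes dystrophin, was at 275 ± 18.5 against 149 ± 4.08 CPM (log2 fold change 0.89 ± 0.12, adjusted p = 0.00137). Dtnb was the other higher gene (0.60 ± 0.16, adjusted p = 0.0202, lost under 6 of 26 alternatives) and Sgcd the lower one, at 0.0507 ± 0.0622 against 2.17 ± 1.07 CPM (adjusted p = 0.00511).

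Of 16 enzymes that build the laminin-binding sugar of dystroglycan, 3 were higher and 4 lower, which is near the shares over all genes, with a median log2 fold change of 0.24. Rxylt1 (log2 fold change -0.66 ± 0.14, adjusted p = 0.00934) and Dpm2 (-0.68 ± 0.14, adjusted p = 0.00831) were among the lower ones. With the length trend removed, 2 of the 16 were higher and 1 lower, and both named genes lost their call (-0.06 and 0.05, adjusted p = 0.761 and 0.814). Of 21 further basement membrane and laminin-binding genes, 8 were higher and 6 lower. They included Fbln2, which encodes fibulin 2 (1277 ± 149 against 753 ± 176 CPM, adjusted p = 0.0155), Pxdn, whose enzyme crosslinks collagen IV (692 ± 83.8 against 217 ± 26.6 CPM, adjusted p = 0.000481), and the MuSC surface proteoglycan Sdc4 (964 ± 79.0 against 452 ± 9.86 CPM, adjusted p = 0.000878), all higher. Fbln2 lost its call under 8 of 26 alternatives, among them removal of the length trend (adjusted p = 0.0871) and leaving out CTRL 2B (adjusted p = 0.167), which also ended the call of Pxdn (adjusted p = 0.0525). Of 17 other integrin ligands tested, 7 were higher and 4 lower, and the 3 most abundant of the 11 were higher, namely Thbs2, Vcam1 and Fbn1. Sdc4 and Vcam1 are also in the MuSC marker list. Thbs2 was at 1525 ± 91.9 against 581 ± 7.36 CPM (log2 fold change 1.39 ± 0.12, adjusted p = 0.000404).

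Kallisto also gives estimates per transcript, and 29 members had at least 2 transcripts that each held over 10% of the gene's TPM on average over mice, 81 transcripts in all. These shares are a description, since the exact permutation test over mice cannot pass the threshold. For Dag1 the main transcript Dag1-202 held 38.3% ± 2.39 in VA-free and 43.3% ± 1.22 in control mice, and for Itgb1 the coding transcript Itgb1-201 held 71.6% ± 0.6 and 76.0% ± 2.62. For Lama2 the full-length Lama2-201 held 54.6% ± 0.772 against 36.8% ± 0.233, although single CTRL libraries ran from 26.6% (CTRL 2A) to 47.4% (CTRL 2B). Lama2-206, a retained intron of 643 bases, held 10.3% ± 0.384 against 24.2% ± 6.21, and neither transcript's libraries overlapped between the diets. By estimated counts the shift was smaller, with Lama2-201 at 80.9% against 72.7% and Lama2-206 at 0.913% against 2.955%. Itga6 went the other way. Its short Itga6-205, a processed transcript of 443 bases, held 49.9% ± 7.31 of TPM in VA-free and 11.5% ± 2.78 in control mice, which came to 8.81% against 1.26% of its estimated counts. For Agrn the retained intron Agrn-205 held between 23.6% and 31.5% in VA-free libraries and between 27.0% and 93.0% in CTRL libraries, so the diets overlapped, with CTRL 2A at the top.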

How the data were processed

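RNA of sorted MuSCs of 3 VA-free and 2 control mice was measured in 8 libraries. The authors pseudo-aligned 75 bp reads to GRCm38 transcripts (Ensembl 96) with kallisto 0.46.2, after FastQC, and deposited estimated counts, effective lengths in bases (another unit) and TPM per transcript, without normalization between libraries. Per the labels and methods, the authors then used tximport and DESeq2.

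Here estimated counts were summed per gene and over the libraries of a mouse, then rounded. Between 0.647% and 0.756% of a library's counts lay on transcripts without a gene and were left out. Diets were compared over 5 mice with edgeR 4.0.16 in R 4.3.3 (TMM, filterByExpr, quasi-likelihood test in its older form, Benjamini-Hochberg adjustment over 17997 genes, threshold 0.05), with the diet as the only term. On simulated counts with 200 changed genes it called 176 of them and 9 unchanged ones. The simulation left most of its 17637 genes unchanged and used a single dispersion for all of them. It held no length trend and no outlying mouse or library, so it does not give the error rates in these data. The deposited TPM were used for levels between genes and for chain and transcript shares. Counting error is small at this depth except for members with few counts, such as Itga10, Itgb7 and Lama1.

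Alternatives were DESeq2 1.42.0, limma-voom (limma 3.58.1), RLE and upper-quartile factors, no filter or 10 CPM in 2 mice, libraries as separate samples or 1 per mouse, average transcript length as an offset, the length trend removed by loess (span 0.5), limma on log2(TPM + 1) or log2(TPM + 0.1), the replicate block, and each mouse or library left out. The newer quasi-likelihood form, the length trend without CTRL 2A and CPM per kilobase were added after the data were seen.

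The members and the gene lists were chosen with earlier results of these data known. Up to 4 members of a role with the highest CPM, and any other called member with an absolute log2 fold change of at least 1, were given in full, up to 30, which left out the 5 uncalled ones with the lowest CPM. The values of 1 member and 1 list gene are not reported here, and the former is left out of the plots of fold change. In pathway lists up to 3 of the most abundant called genes were named, and in marker lists up to 3 of the most abundant. Pecam1 was named among endothelial markers under this rule. Nkg7 and Ncr1 were named after their values were seen, as were the transcripts. Start regions are from RefSeq (GRCm38.p6), in which 25 members matched by symbol and 3 were left out as farther than 100 bases from the transcript's 5′ end.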

Additional observations from a re-analysis of the deposited data

Results flagged for a closer look

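In 76 sets of 4 libraries (38 members in 2 diets), 3 held a library far from the other 3. For 4 independent values chance gives about 1 set in 20, and 3 of 76 is no more than that rate. The rate is only a guide here, since libraries of a mouse are not independent. Itgb2, a leukocyte chain, was at 2.83 CPM in VA-free 2A and between 0.684 and 0.885 CPM in the other VA-free libraries, and the macrophage markers were highest in the same VA-free library, at 172 CPM. Itgb8 was at 11.7 CPM in CTRL 2B and between 6.74 and 7.32 CPM in the other CTRL libraries. Nid2 was at 154 CPM in VA-free 2A and between 119 and 125 CPM in the other VA-free libraries. CTRL 2A was flagged for no member, although it was the lowest CTRL library for 32 of 38.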

How the results depend on the processing

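Of the 24 called members, 12 kept their call under every alternative that tested them (Dag1, Itga1, Itga6, Itga9, Itga10, Itgav, Lama2, Lama3, Lama4, Lamb1, Lamc1 and Nid2). All 26 alternatives tested each of these except Itga10, which was tested in 25. Over 622 values of called members 574 stayed past the threshold in the same direction, 47 missed it and 1 turned, Lama5 with average transcript length as an offset (-0.16). Called members numbered 24 and 15 to 27 when a mouse or library was left out, with 10 to 17 higher and 5 to 12 lower, and 5 were lower with 1 library per mouse. Genes of the pathway lists called higher numbered 27, 41 with TPM at either pseudocount, and 12 (without CTRL 2B) to 30 when a mouse or library was left out, and those called lower 22, and 14 with TPM at a pseudocount of 0.1. The replicate block, which pairs mice by number, called 23 members, 14 higher and 9 lower, against 5242 of 17997 genes. Under it 2 higher members lost their calls, Itgb8 among them, and Itgb2 was called lower. Nothing in the labels ties same-numbered mice, and their deviations correlated at -0.0654 and 0.0103. Signs of uncalled members turned for Itga5 (0.20 and 0.21 with TPM, -0.84 to 0.35 with a mouse or library left out), Itgb3 (0.0197 with 1 library per mouse, -1.08 to 0.26 with one left out), Lama1 (-0.13 with limma-voom, -0.15 with average transcript length, -0.0769 and -0.40 with TPM, -0.91 with the replicate block) and Itga2b (0.35 with 1 library per mouse, 0.29 with the length trend removed, 0.17 and 0.19 with TPM, -0.68 to 0.46 with one left out, 0.10 with the length trend removed and CTRL 2A left out). Among the named genes of the pathway lists the sign turned for Tln2 (-0.35 with average transcript length), Dpm2 (0.0525 with the length trend removed, 0.03 with CTRL 2A left out as well) and Rxylt1 (0.17 with both). The cause was not tested. With 2 control mice, one of them with technical replicates far apart, the spread of that diet rests on 1 difference between animals.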
